A study of Mus musculus with 6 samples.

Results

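Regulators of G protein signalling (RGS proteins) were followed as a family in mouse macrophages exposed to tumour vesicles, through 8 genes: Rgs1, Rgs2, Rgs3, Rgs10, Rgs14, Rgs16, Rgs18 and Rgs19. These are 8 of the 26835 genes with values in the tables, found by gene symbol. They were picked because Rgs2 was far lower in vesicle-treated than in control cells, so the difference in Rgs2 is given as a description and carries no test. The cells were macrophages grown from the bone marrow of wild-type BALB/C mice aged 5 to 8 weeks. They were cultured for 6 days in 10% serum with 25 ng/ml of M-CSF, the growth factor that drives macrophage differentiation. The K7M2-EV group (n = 3) was then given 10 µg of K7M2-EV for 24 h, that is, vesicles shed by the mouse osteosarcoma line K7M2. The PBS group (n = 3) received the buffer alone for the same time. The replicates are described by the submitters as independent experiments, and the sources used here do not say whether marrow was pooled across animals.

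A G protein-coupled receptor that binds its ligand loads GTP onto a Gα subunit, which then separates from its Gβγ partner, and both act on effector enzymes. RGS proteins end that signal by speeding up GTP hydrolysis on Gα, through a shared RGS domain. The family is sorted into subfamilies by sequence, and the R4 subfamily (here Rgs1, Rgs2, Rgs3, Rgs16 and Rgs18) holds small proteins that are little more than the domain itself, apart from the longer forms of Rgs3. The R12 subfamily is represented by Rgs10 and Rgs14 and the RZ subfamily by Rgs19. In leukocytes these proteins are known for tuning the response to chemokines and other attractants, which act mostly through Gαi.

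Levels are taken to be in FPKM, fragments per kilobase of transcript scaled to the library's depth, with 1 table per library. The spacing of the low values implied 21435324 to 25689188 fragments per library. Macrophage markers were present in every library: all 8 were above 1 FPKM throughout, and Csf1r, the M-CSF receptor gene, averaged 230 ± 17.1 FPKM in K7M2-EV cells and 179 ± 19.2 FPKM in PBS cells (SD, n = 3 each). Of these markers 6 were called higher and 1 lower with vesicles, beside 18.4% higher and 35.6% lower among all genes tested. Adgre1, the F4/80 gene, was at 1824 ± 183 FPKM in K7M2-EV cells and 170 ± 27.2 FPKM in PBS cells. Cd68 was at 202 ± 11.7 FPKM in K7M2-EV cells and 411 ± 35.3 FPKM in PBS cells. Replicate 2 stood apart in both groups by its mesenchymal genes, with a summed level over 12 markers of 578 FPKM in K7M2-EV replicate 2 and 297 FPKM in PBS replicate 2. The lowest sums were 208 FPKM in K7M2-EV cells and 126 FPKM in PBS cells. In bulk RNA, fewer cells of a type and less RNA per cell cannot be told apart.

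Among the R4 genes, Rgs2, whose protein acts chiefly on Gαq, had the highest level in control cells. It was at 3.31, 2.97 and 2.39 FPKM in K7M2-EV replicates 1 to 3, against 52.9, 38.4 and 49.3 FPKM in PBS replicates 1 to 3. All 3 vesicle libraries lay far below the lowest control library, and the means of 2.89 ± 0.465 FPKM in K7M2-EV cells and 46.9 ± 7.57 FPKM in PBS cells (SD, n = 3 each) differed 16.2-fold. By log2 fold change it ranked 9 from the lowest of 6178 tested genes whose PBS mean reached 5 FPKM, the value for which the family was picked. On GRCm38 it lies on chromosome 1 at 143999338 to 144004161, minus strand.

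Rgs1, known from lymphocytes as a brake on chemokine-driven migration, had a still larger ratio on the FPKM scale. Its levels were 0.211, 0.234 and 0.211 FPKM in K7M2-EV replicates 1 to 3, against 9.52, 7.40 and 6.67 FPKM in PBS replicates 1 to 3. The gene was thus near the floor in every vesicle library and moderately expressed in every control library, 35.9-fold apart in the means. The vesicle values rest on about 35, 36 and 35 fragments per library, if the exon length of the annotation is the one the authors used, a counting error of up to 16.9%. On log2(FPKM + 1), where changes of weakly expressed genes appear smaller than they are, the fold change was -2.85 ± 0.120 (SE, limma with Benjamini-Hochberg adjustment over 13009 genes, adjusted p = 9.59e-06). Rgs1 passed the expression filter of 1 FPKM in at least 3 libraries through its control libraries alone, so it had to differ to be tested at all. It lies on chromosome 1 at 144242296 to 144249242, minus strand.

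Rgs16, which acts on Gαi and Gαq and is inducible in many leukocytes, was at 1.10, 1.27 and 1.17 FPKM in K7M2-EV replicates 1 to 3, against 7.84, 5.85 and 6.74 FPKM in PBS replicates 1 to 3. The ranges were well apart, and the means differed 5.76-fold (log2 fold change -1.83 ± 0.101, SE, limma adjusted p = 2.71e-05). It lies on chromosome 1 at 153740349 to 153745468, plus strand. An annotated antisense gene overlaps it, Gm28513, which was at no more than 0.148 FPKM in any library.

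Rgs18, best known from platelets and their precursors, fell by less. It was at 13.6, 14.03 and 12.5 FPKM in K7M2-EV replicates 1 to 3, against 21.01, 18.3 and 20.05 FPKM in PBS replicates 1 to 3. The ranges did not overlap, and the means differed 1.48-fold (log2 fold change -0.53 ± 0.071, SE, limma adjusted p = 0.00107). Rgs3, the remaining R4 member, was low throughout, at 0.665, 0.710 and 0.549 FPKM in K7M2-EV replicates 1 to 3 and at 0.546, 0.725 and 0.615 FPKM in PBS replicates 1 to 3. Its groups overlapped almost completely, and it stayed below the filter. Tested without a filter it had a log2 fold change of 0.01 (limma adjusted p = 0.938 over 26835 genes). Rgs18 lies on chromosome 1 at 144752683 to 144775435, minus strand, and Rgs3 on chromosome 4 at 62559847 to 62704001, plus strand.

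The R12 genes split. Rgs10, a protein made up of little beyond an RGS domain that acts on Gαi and is abundant in microglia and macrophages, fell. It was at 11.97, 12.5 and 12.6 FPKM in K7M2-EV replicates 1 to 3, against 31.4, 26.3 and 29.8 FPKM in PBS replicates 1 to 3. The vesicle libraries were tightly grouped at 42.4% of the control mean (log2 fold change -1.17 ± 0.073, SE, limma adjusted p = 4.35e-05). A noncoding gene on the same strand, Gm15503, overlaps it and was at no more than 1.91 FPKM. Rgs14, which carries a second Gαi-binding motif beside its RGS domain, went the other way by a small amount. It was at 4.65, 4.87 and 4.66 FPKM in K7M2-EV replicates 1 to 3, against 3.72, 3.89 and 4.19 FPKM in PBS replicates 1 to 3. The groups did not overlap, but the log2 fold change was only 0.22 ± 0.058 (SE, limma adjusted p = 0.0192). The call was lost in 7 of 15 alternative settings, all of them with libraries left out: without any 1 of the vesicle libraries, without PBS replicate 1, and without both libraries of any 1 replicate number (adjusted p between 0.0508 and 0.108). Rgs10 lies on chromosome 7 at 128373621 to 128418758, minus strand, and Rgs14 on chromosome 13 at 55369732 to 55384687, plus strand.

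Rgs19, the RZ member, first described as a partner of Gαi3, rose. It was at 10.6, 9.71 and 8.71 FPKM in K7M2-EV replicates 1 to 3, against 5.93, 5.08 and 7.07 FPKM in PBS replicates 1 to 3. The lowest vesicle library was above the highest control library, and the mean was 1.604 times the control mean (log2 fold change 0.61 ± 0.118, SE, limma adjusted p = 0.00522). Within pairs of the same replicate number the log2 difference ran from 0.27 in replicate 3 to 0.82 in replicate 2. The call did not hold when replicate 1 was left out of both groups (adjusted p = 0.0584). Rgs19 lies on chromosome 2 at 181688419 to 181693977, minus strand.

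**Figure D1:**
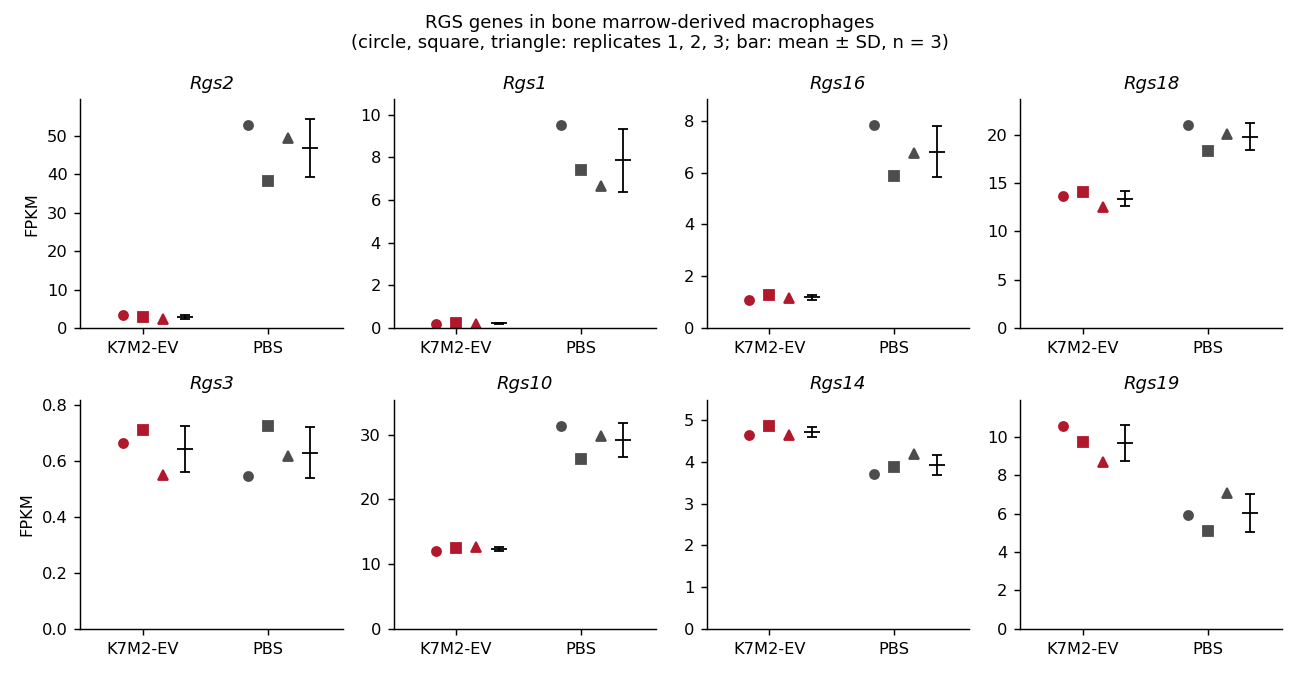
FPKM of the 8 RGS genes in each library (vertical axis, from 0, with its own range in each panel), K7M2-EV at the left and PBS at the right of each panel, with the mean and SD beside the points. The upper row and Rgs10 show control libraries above all vesicle libraries, Rgs14 and Rgs19 the reverse, and Rgs3 overlaps.

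Of the 7 members that passed the filter, 2 were higher and 5 lower with vesicles. Among all 13009 genes tested, 54.0% were called, 18.4% as higher and 35.6% as lower, and the median log2 fold change was -0.12. After median-of-ratios scaling, which brings that median to about 0 by construction, 3445 genes were higher and 3376 lower in place of 2395 and 4631, and the members still counted 2 higher and 5 lower. The groups did not overlap in 7 of the 8 members, 2 higher and 5 lower, beside 63.8% of all tested genes (21.8% higher and 42.0% lower). Because the family was picked from this same contrast, nothing is read from these counts.

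The order of the genes by level changed as well. In K7M2-EV cells Rgs18 and Rgs10 came first with overlapping ranges, followed by Rgs19, Rgs14, Rgs2, Rgs16, Rgs3 and Rgs1, each clear of the next. In PBS cells the order was Rgs2, Rgs10 and Rgs18, each clear of the next, then Rgs1, Rgs16 and Rgs19 with overlapping neighbours, then Rgs14 and Rgs3. Summed over the 8 genes, the level was 45.1 ± 1.93 FPKM in K7M2-EV cells and 121 ± 13.8 FPKM in PBS cells, and without Rgs2 it was 42.2 ± 1.51 FPKM in K7M2-EV cells and 74.2 ± 6.28 FPKM in PBS cells (SD, n = 3 each). Rgs2 made up 6.39% ± 0.8 of the sum in K7M2-EV cells and 38.6% ± 2.01 in PBS cells, while Rgs19 made up 21.4% ± 1.36 in K7M2-EV cells and 4.98% ± 0.628 in PBS cells. Rgs10 held a like part in both, 27.5% ± 1.83 in K7M2-EV cells and 24.1% ± 0.628 in PBS cells, because its level and the sum were both lower with vesicles. Shares and orders compare genes by length, and the sources used here do not state the length used for each gene. For Rgs1 the annotated exons together cover 6947 bases, its entire span, while its longest coding transcript has 3841. A shorter length would raise a gene's level in every library by the same factor, which leaves its ratio between the groups as it is but can move its place in the order. If the values rest on all annotated exons, then scaled to the longest coding transcript instead Rgs10 would average 24.0 FPKM in K7M2-EV cells, above Rgs19 at 14.3 and Rgs18 at 13.4 FPKM, and 56.7 FPKM in PBS cells, level with Rgs2 at 56.3 FPKM.

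**Figure D2:**
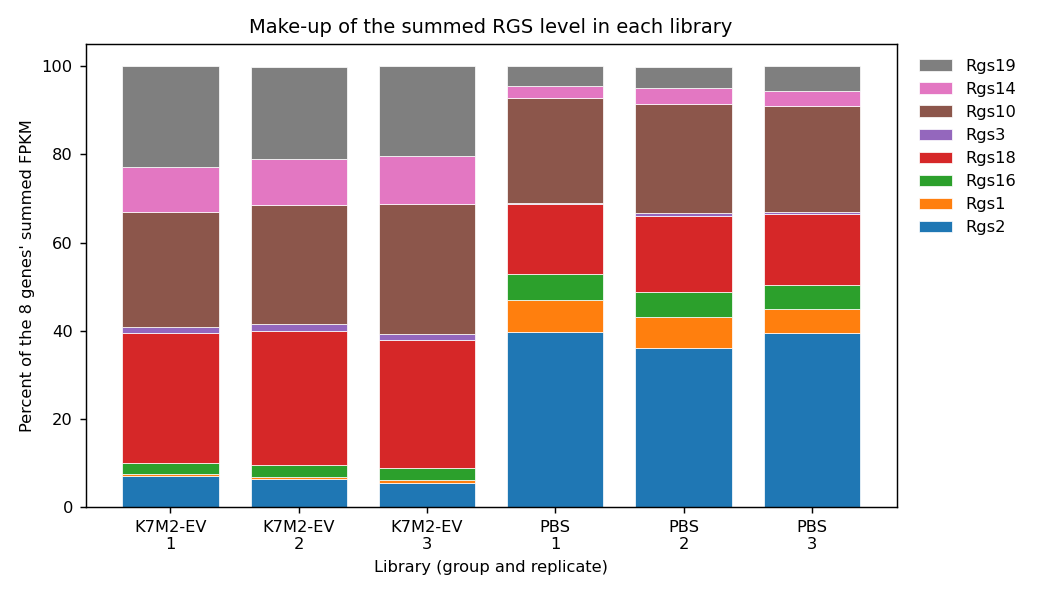
Each bar is 1 library, with the 3 K7M2-EV libraries at the left, split by the percent that each gene contributes to the 8 genes' summed FPKM. Rgs2 is the largest block in each PBS library (36.2% to 39.8%) and a thin one in each K7M2-EV library (5.58% to 7.18%), where Rgs18, Rgs10 and Rgs19 lead.

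Of 13 other classical RGS genes, 8 had values and 1 passed the filter. This was Rgs12, an R12 relative with several further domains, at 0.573 ± 0.0649 FPKM in K7M2-EV cells and 1.32 ± 0.184 FPKM in PBS cells (SD, n = 3 each, log2 fold change -0.56, limma adjusted p = 0.00166). Like Rgs1 it passed through its control libraries alone. The other 7, Rgs4, Rgs5, Rgs8, Rgs9, Rgs11, Rgs13 and Rgs20, were at or below 0.332 FPKM in every library. Rgs6, Rgs7, Rgs17, Rgs21 and Rgs22 were not analysed here. A wider list of 15 genes held proteins with a more distant RGS-type domain, Gα modulators and partners of R7 proteins. Of the 12 tested, 8 were lower and 0 higher, beside 35.6% lower and 18.4% higher among all genes tested. The list's median log2 fold change was -0.25. The largest falls were in Akap10, an anchor of protein kinase A (log2 fold change -0.64), the sorting nexin genes Snx14 (-0.36) and Snx13 (-0.34), and Arhgef11, a guanine nucleotide exchange factor gene (-0.33). These are small changes against an all-gene median of -0.12. After median-of-ratios scaling 2 of the list were higher and 4 lower, and Snx13 and Arhgef11 were no longer called (adjusted p = 0.0502 and 0.127).

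Sequences upstream of the start sites are shown for 4 members, 3 that were lower (Rgs2, Rgs16, Rgs10) and 1 that rose (Rgs19), because genes of one family moved in opposite directions. They are the 250 bases before the RefSeq start on GRCm38.p6, the most upstream start where a gene has several, read 5′ to 3′ on the gene's strand. The RefSeq table matched 5 of the 8 members. Its starts differ from the gene positions given above: the Rgs10 window lies wholly inside the gene, whose annotated start is at 128418758. The windows of Rgs2 and Rgs16 overlap the gene positions by a few bases at their 3′ ends. Capitals mark every match, on either strand, to 1 of 8 short motifs: TGACG (the short form of the cAMP response element), TGANTCA (AP-1), GGGCGG (GC box), CCAAT (bound by NF-Y), TATAAA (core promoter), GAGGAA (the core of the macrophage factor PU.1), an interferon-stimulated element (GAAA, any 2 bases, GAAA) and an NF-κB-type site (GGGA, any 4 bases, CC).
Rgs2, chr1:144004150-144004399 (minus strand): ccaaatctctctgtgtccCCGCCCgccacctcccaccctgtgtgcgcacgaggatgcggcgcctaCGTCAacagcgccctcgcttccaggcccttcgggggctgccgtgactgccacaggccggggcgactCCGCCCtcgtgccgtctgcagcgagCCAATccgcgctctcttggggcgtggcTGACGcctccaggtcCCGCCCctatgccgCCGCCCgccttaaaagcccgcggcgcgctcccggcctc
Rgs16, chr1:153740103-153740352 (plus strand): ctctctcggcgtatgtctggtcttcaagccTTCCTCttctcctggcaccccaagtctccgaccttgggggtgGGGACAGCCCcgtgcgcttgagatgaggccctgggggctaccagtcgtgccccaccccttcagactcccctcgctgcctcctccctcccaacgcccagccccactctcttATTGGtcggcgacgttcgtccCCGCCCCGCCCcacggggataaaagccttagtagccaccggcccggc
Rgs10, chr7:128418173-128418422 (minus strand): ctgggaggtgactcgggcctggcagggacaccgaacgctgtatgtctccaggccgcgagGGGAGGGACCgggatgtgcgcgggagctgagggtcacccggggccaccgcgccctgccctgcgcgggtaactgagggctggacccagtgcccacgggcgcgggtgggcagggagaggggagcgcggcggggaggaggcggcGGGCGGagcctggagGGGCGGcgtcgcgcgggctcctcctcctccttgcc
Rgs19, chr2:181693978-181694227 (minus strand): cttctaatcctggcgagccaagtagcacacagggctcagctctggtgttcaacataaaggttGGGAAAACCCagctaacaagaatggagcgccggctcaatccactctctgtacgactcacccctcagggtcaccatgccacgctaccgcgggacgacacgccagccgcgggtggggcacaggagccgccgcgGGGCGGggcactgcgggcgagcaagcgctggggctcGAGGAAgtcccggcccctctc

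The Rgs2 window held 2 matches to TGACG, 4 to GGGCGG and 1 to the CCAAT motif. The first, TGACG, was found in 17.8% of the 32851 windows of this length, and among the 4 printed only in that of Rgs2. GGGCGG, present in 32.7% of all windows, occurred in all 4 printed, with 2 matches for Rgs16 that share bases, 2 for Rgs10 and 1 for Rgs19. The CCAAT motif, in 33.8% of all windows, was matched once in Rgs2 and once in Rgs16. The NF-κB-type site was found once in each of Rgs16, Rgs10 and Rgs19 and in 17.6% of all windows, so Rgs16 and Rgs10, which fell, and Rgs19, which rose, all carried it. GAGGAA was matched once in Rgs16 and once in Rgs19, and in 23.3% of all windows. The AP-1, TATA and interferon-stimulated motifs, in 6.75%, 12.4% and 2.98% of all windows, had no match in the 4 printed. The 4 windows had between 64.8% and 76.4% G or C, against a mean of 53.2% over all windows, which bears on the GC box count. A match is a description of the letters and not evidence that a factor binds.

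The 4 members on chromosome 1 that were lower include a cluster, with the starts of Rgs2 and Rgs1 245.1 kb apart and those of Rgs2 and Rgs18 771.3 kb apart, while Rgs16 lies 9736.2 kb from Rgs2. Between Rgs2 and Rgs1 lies Rgs13, which was near 0 in all libraries. Protein-coding genes starting within 500 kb of these members, other RGS genes included, numbered 19 besides the members, of which 8 were tested. All 8 were lower (35.6% of all genes tested were), of which 2 passed the filter through control libraries alone, and 4 were called lower after median-of-ratios scaling and 3 without both libraries of replicate 3. Trove2, which encodes an RNA-binding autoantigen, and Uchl5, which encodes a deubiquitinase, are the nearest tested genes on the far side of Rgs2. Trove2 fell to 2.46 ± 0.289 FPKM in K7M2-EV cells, against 5.13 ± 0.300 FPKM in PBS cells (SD, n = 3 each, log2 fold change -0.83, limma adjusted p = 0.000252). Uchl5 had a log2 fold change of -0.37 (limma adjusted p = 0.00487), a call that did not hold when replicate 3 was left out of both groups (adjusted p = 0.0713).

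**Figure D3:**
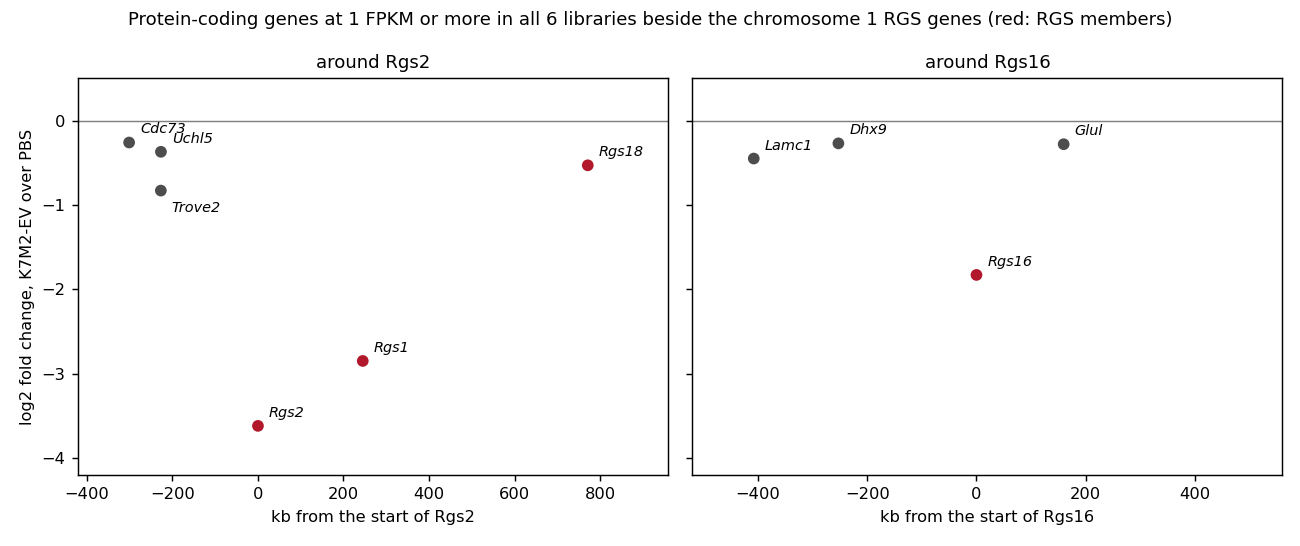
Log2 fold change, K7M2-EV over PBS, on log2(FPKM + 1) (vertical axis) against distance in kb from the start of Rgs2 (left) or Rgs16 (right) for the 6 tested neighbours that reached 1 FPKM in all 6 libraries, with RGS members in red. Members are plotted whatever their level, Rgs1 included, while neighbours that passed the filter through control libraries alone are left out. Rgs2, Rgs1 and Rgs16 lie below each neighbour plotted, which says nothing of the neighbours left out.

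The genes most like Rgs2 were found by the distance between log2(FPKM + 1) values over the 6 libraries, each gene set to its own PBS mean, among 5393 tested genes whose PBS mean reached 5 FPKM, without the members and genes with clone-type names (such as Gm or Rik). They were Pcp4l1 (distance 0.234), Xylt1 (0.339), the chemokine receptor gene Cxcr4 (0.451), the interleukin-7 receptor gene Il7r (0.697) and the mannose receptor gene Mrc1 (0.976). The hundredth gene in this order was at 2.55. Cxcr4, a Gi-coupled receptor, was at 2.13, 2.41 and 2.07 FPKM in K7M2-EV replicates 1 to 3, against 54.9, 32.8 and 46.8 FPKM in PBS replicates 1 to 3. As for Rgs2, its lowest control library was replicate 2. That library was also the lowest control for Rgs10, Rgs16, Rgs18 and Rgs19 and for most macrophage markers. It was not for Rgs1, Rgs3, Rgs14 or the marker Mertk, so the trait is not particular to Rgs2 and Cxcr4.

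The tested Gα subunit genes of all classes had log2 fold changes between -0.90 and 0.85. Of the Gi/o class, Gnai2 was the most abundant at 98.9 ± 4.18 FPKM in K7M2-EV cells and 81.3 ± 6.62 FPKM in PBS cells (SD, n = 3 each, log2 fold change 0.28, limma adjusted p = 0.0189). That call was lost without K7M2-EV replicate 1 or 3 and without both libraries of any 1 replicate number (adjusted p between 0.0505 and 0.121). Gnai3 was at 41.6 ± 1.40 FPKM in K7M2-EV cells and 43.4 ± 1.20 FPKM in PBS cells and was not called (log2 fold change -0.06, limma adjusted p = 0.349), with a log2 fold change of 0.08 after median-of-ratios scaling. In the Gq/11 class Gna15 and Gnaq moved apart. Gna15, the form typical of blood cells, rose to 11.9 ± 1.34 FPKM in K7M2-EV cells, against 6.18 ± 0.252 FPKM in PBS cells (log2 fold change 0.85, limma adjusted p = 0.000316). Gnaq, the main target of the Rgs2 protein, fell to 18.2 ± 0.230 FPKM in K7M2-EV cells, against 26.1 ± 0.684 FPKM in PBS cells (log2 fold change -0.50, limma adjusted p = 0.000211). Gna11 was not called. In the Gs and G12/13 classes Gna12, Gnas and Gna13 fell, with log2 fold changes of -0.90, -0.34 and -0.26. Gna13 lost its call after median-of-ratios scaling (adjusted p = 0.148), and Gnas and Gna13 lost theirs without both libraries of replicate 3 (0.110 and 0.0950).

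**Figure D4:**
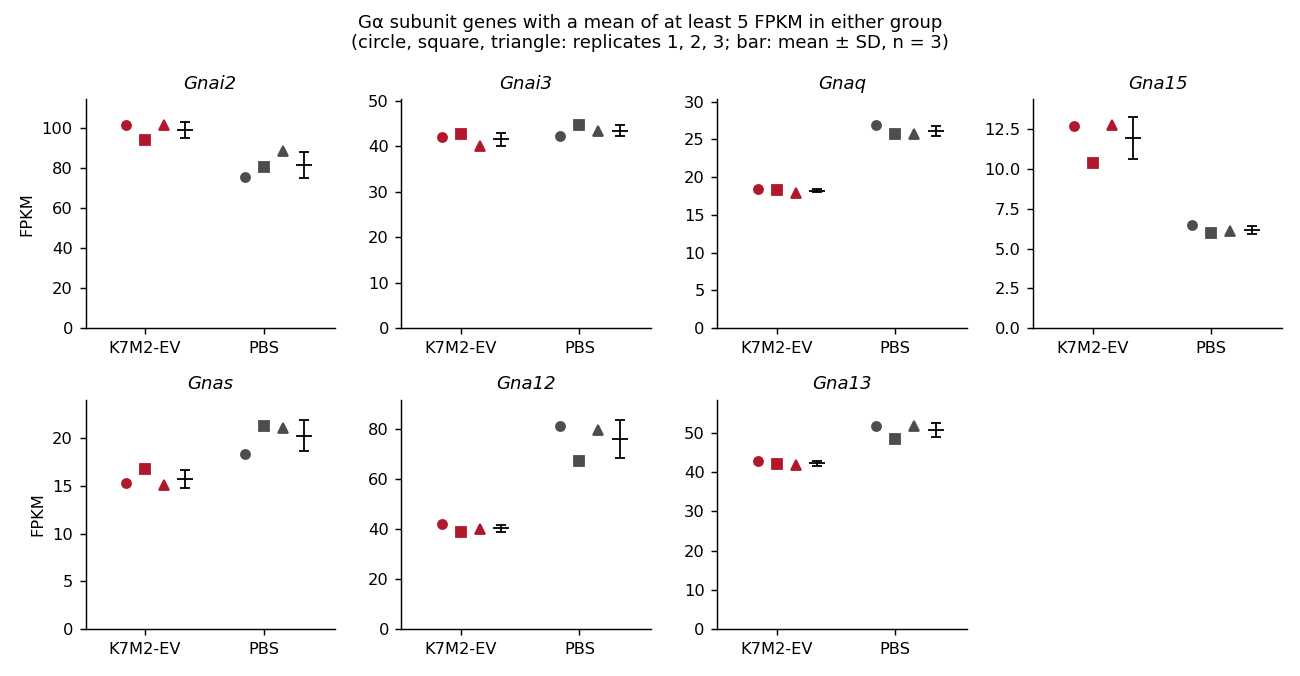
FPKM in each library (vertical axis, from 0) of the 7 Gα genes whose mean reached 5 FPKM in either group, K7M2-EV at the left of each panel, with mean and SD. Gna15 and Gnai2 lie higher and Gnaq, Gnas, Gna12 and Gna13 lower with vesicles, while Gnai3 overlaps.

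Of 17 Gβ and Gγ genes, 10 were tested: 5 were higher and 4 lower, and the median log2 fold change was 0.22. Gnb1, the main Gβ gene here, rose to 59.9 ± 2.90 FPKM in K7M2-EV cells, against 36.0 ± 0.754 FPKM in PBS cells, and Gngt2, a Gγ gene, had a log2 fold change of 1.09. Gnb4 and Gng11 fell, with log2 fold changes of -1.28 and -0.88. Receptor kinases, which phosphorylate active receptors, and arrestins, which then bind and silence them, form a second way of ending the signal. Of 8 such genes tested, arrestin-domain genes included, 7 were higher and 0 lower (median log2 fold change 0.54, against -0.12 for all genes), beside 18.4% higher and 35.6% lower among all genes tested. Without both libraries of replicate 3, 4 were higher. The receptor kinase gene Grk2 was at 42.0, 51.9 and 61.9 FPKM in K7M2-EV replicates 1 to 3, against 22.4, 20.8 and 23.6 FPKM in PBS replicates 1 to 3 (limma adjusted p = 0.000655). Arrb2, which encodes β-arrestin-2, was at 54.1, 45.6 and 55.6 FPKM in K7M2-EV replicates 1 to 3, against 22.8, 22.2 and 24.0 FPKM in PBS replicates 1 to 3 (limma adjusted p = 9.31e-05). Both genes were higher in every vesicle library than in any control library, and Grk5 and Arrdc4 rose by 0.67 and 0.57 on the log2 scale. With the replicate number as a block, 1 gene of this list was also lower.

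Effector genes moved in both directions, with 3 of 8 tested higher and 3 lower, beside 18.4% higher and 35.6% lower among all genes tested. The 3 that rose encode the Gβγ-activated phosphoinositide 3-kinase of leukocytes: its catalytic subunit Pik3cg (log2 fold change 1.59) and its adaptors Pik3r5 (1.88) and Pik3r6 (1.62). Pik3r5 was at 97.8, 85.1 and 99.4 FPKM in K7M2-EV replicates 1 to 3, against 25.4, 23.8 and 25.4 FPKM in PBS replicates 1 to 3 (limma adjusted p = 8.15e-06). The adenylyl cyclase gene Adcy9 had the largest fall of the list, with a log2 fold change of -1.13 (limma adjusted p = 0.00023). Of 11 tested genes for cAMP phosphodiesterases and protein kinase A subunits, 2 were higher and 6 lower, or 4 and 4 after median-of-ratios scaling. Pde4b, a cAMP-degrading enzyme gene, rose to 4.32 ± 0.512 FPKM in K7M2-EV cells, against 0.213 ± 0.0429 FPKM in PBS cells (SD, n = 3 each, limma adjusted p = 9.33e-06), and passed the filter through its vesicle libraries alone. Prkar2b rose, with a log2 fold change of 0.88, and Pde3b and Pde4a fell, with -1.03 and -0.44.

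Rgs2 is known as a gene induced through cAMP and its factor CREB, and 15 genes of that kind had values. Of 9 tested, 2 were higher, Sik1 and Il10 (log2 fold changes 2.21 and 2.07), and 3 lower, among them Nr4a1 and Fos (-0.90 and -0.70). The median of the list was -0.24. The called genes made up 55.6% of the 9, close to the 54.0% called among all genes tested. Il10 passed the filter through vesicle libraries alone and Nr4a1 through control libraries alone. With the replicate block or without both libraries of replicate 2, 5 were lower.

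Of 18 tested receptors listed as coupling mainly to Gi, 5 were higher and 12 lower (median log2 fold change -0.64). Among all genes tested, 18.4% were higher and 35.6% lower. Coupling was assigned by list and not tested, with Lpar6 (log2 fold change -1.16) under Gi and Lpar1 (0.75) under the other classes. Of the 18, 3 passed the filter through vesicle libraries alone, Fpr1 and Fpr2 among them, and 3 through control libraries alone, so these 6 had to differ to be tested. The largest rises were in Fpr1 and Fpr2, receptors for formylated peptides of bacteria and mitochondria (6.86 and 6.67), and in Gpr84, a receptor for medium-chain fatty acids (4.55), and the largest fall was in Cxcr4 (-3.81). Of 17 tested receptors listed as coupling mainly to Gq, Gs or G12/13, 7 were higher and 5 lower (median 0.23). Among them Ptafr, the receptor gene for platelet-activating factor, fell to 27.2 ± 1.44 FPKM in K7M2-EV cells, against 106 ± 14.9 FPKM in PBS cells (SD, n = 3 each, limma adjusted p = 2.88e-05), and P2ry1, which passed the filter through control libraries alone, had a log2 fold change of -1.49. Adora2a and Ptgir, Gs-coupled receptors for adenosine and prostacyclin, rose by 2.55 and 1.12 and passed the filter through vesicle libraries alone.

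**Figure D5:**
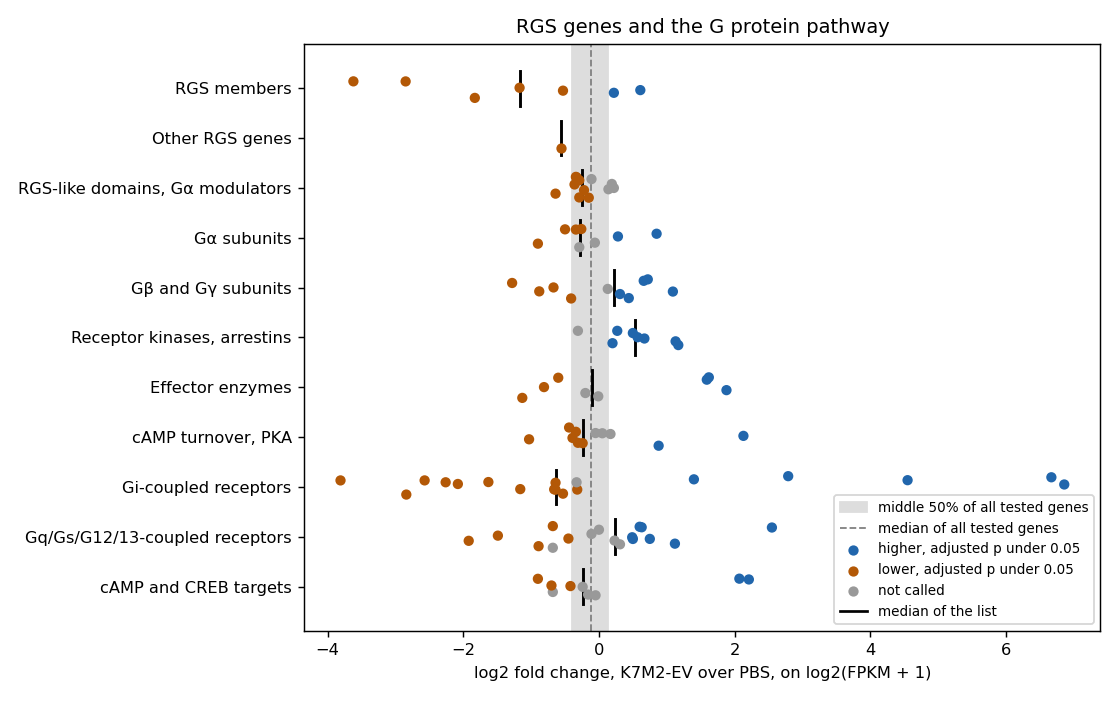
Log2 fold change, K7M2-EV over PBS, on log2(FPKM + 1) (horizontal axis) of every tested gene in the family and its pathway, 1 point per gene and 1 row per list (Gα classes joined), coloured by call, with each row's median as a black bar. The grey band is the middle 50% of all tested genes, from -0.39 to 0.14. Rgs2 and Rgs1 lie at the far left of the top row, and only 1 receptor kinase or arrestin gene, Arrdc3, lies left of 0.

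Markers of other blood cells that are rich in RGS genes were measured beside these results. Of 9 platelet genes, Pf4 and Ppbp rose, and Ppbp passed the filter through vesicle libraries alone, so it had to differ to be tested. The summed level was between 128 and 158 FPKM in K7M2-EV cells, against 31.6 to 37.8 FPKM in PBS cells, while Rgs18 fell. The other 7 platelet genes, among them Itga2b, Gp1ba and Gp9, were at or below 1.17 FPKM in every library. Of 10 lymphocyte genes, 7 had values, and only Ighm passed the filter, at 0.599, 1.87 and 0.431 FPKM in K7M2-EV replicates 1 to 3, against 9.94, 11.2 and 8.84 FPKM in PBS replicates 1 to 3. Ighm thus moved in the direction of Rgs1, and the lymphocyte genes summed to 1.53 to 2.94 FPKM in K7M2-EV cells and 9.37 to 11.95 FPKM in PBS cells. The B cell genes Ms4a1, Cd79a and Pax5 were at or below 0.0624 FPKM in every library, while Cd79b, below the filter, was at 0.987 to 1.18 FPKM in K7M2-EV cells and 0.481 to 0.691 FPKM in PBS cells, opposite to Ighm. Of 9 neutrophil genes with values, S100a8 and Camp rose, and Camp likewise passed the filter through vesicle libraries alone. The sum was 39.6 to 44.8 FPKM in K7M2-EV cells and 3.17 to 6.10 FPKM in PBS cells. Ly6g and Mpo were at or below 0.107 FPKM. S100a9, at up to 1.26 FPKM in K7M2-EV cells and 1.29 FPKM in PBS cells, was not called (log2 fold change -0.22), and Ngp and Retnlg stayed under 1 FPKM. Mast cell and dendritic cell genes, 2 and 6 with values, were all under 1 FPKM. The part of such cells in the RGS values was not tested.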

How the data were processed

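RNA from 3 libraries of K7M2-EV-treated and 3 of PBS-treated macrophages was compared. The authors deposited 1 table of FPKM values per library. The file headers do not name the unit, which was taken to be FPKM. The whole multiples described below could also arise with another length-scaled unit, so they do not settle it. The implied fragment totals rest on the unit being FPKM. Tools listed in the submitters' processing notes, without roles, are HISAT2 2.1.0, CASAVA 1.8, edgeR and StringTie 1.3.4b, and the genome build listed is GRCm38. The sources used here do not state the strand setting, so antisense and overlapping genes cannot be told apart with certainty. Of 26883 rows, 1 without a value was left out, and 47 with a repeated symbol gave way to the row with the highest mean.

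Gene positions and exon lengths came from GENCODE M21 on GRCm38, matched by unique symbol for 99.4% of genes. FPKM times exon length was near whole multiples of a step per library (72.3% to 73.2% of values worth at most 20 fragments were whole within 0.1), which gave the implied fragment totals. The totals were sought only within a set range, so a true total outside it would not have been found. Counting errors from these totals cover counting only.

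The 13009 genes that reached 1 FPKM in 3 or more libraries entered a two-sided limma 3.58.1 fit of log2(FPKM + 1) in R 4.3.3, with a variance trend, robust estimation (statmod 1.5.0) and no added scaling. A gene was called where its p, adjusted by Benjamini-Hochberg across those genes, was below 0.05. The planned design also covered count data, which was not needed. Tested on simulated data with 200 of 12526 genes changed, the fit recovered 28.4%, 89.6% and 98.5% of changes of 1.5-, 2- and 4-fold, and 12.2% of its 164 calls were false, above the nominal rate. The simulation changed a far smaller share of genes than was called in the real data. It also gave every gene the same set dispersion, so these rates need not hold for the real data. Tables were made with Python 3.11.15, numpy 2.4.6 and pandas 2.3.3, and plots with matplotlib 3.10.9.

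Members and lists were chosen with earlier results of these data known. All 8 members are named. From each list of related genes up to 4 called genes with the largest changes are named, as are Gα genes whose mean reached 5 FPKM in either group, the 5 genes most like Rgs2 and the nearest tested neighbours of Rgs2 and Rgs1. Any other gene is named to account for the rest of a list. The values of 1 neighbour are not reported here. Deviations of same-numbered libraries from their group means correlated at 0.317, 0.294 and 0.209 across genes. Those of differently numbered libraries correlated between -0.307 and 0.0232. Deviations within a group cancel out, so these values depend on each other. Pairs of the same replicate number thus have some basis in the data and none in a label. The main fit, which gave the calls and adjusted p-values, compared the groups without this pairing. A fit blocked on that number was an alternative, beside another pseudocount, no filter, scalings, plainer variance settings and left-out libraries, for which the filter stayed set on all 6 libraries.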

Additional observations from a re-analysis of the deposited data

How the results depend on the processing

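Across 15 alternative settings Rgs16, Rgs10 and Rgs18 were called lower in each, with log2 fold changes from -2.42 to -1.69, -1.25 to -1.03 and -0.61 to -0.39. Rgs2, for which the family was picked, ran from -3.97 to -3.48, and Rgs1, tested through its control libraries alone, from -4.63 to -2.71. No stability is read from either. The extremes of -4.63, -3.97 and -2.42 came with a pseudocount of 0.1, which compresses low values less. Rgs19 ranged from 0.50 to 0.78 and Rgs14 from 0.18 to 0.34. With libraries left out, the number of members called higher ranged from 0 to 2, and of all genes from 1531 to 2416 higher and from 2847 to 4281 lower. The lowest counts of genes, 1531 and 2847, came without both libraries of replicate 3, where each group has 2 samples. With the replicate number as a block, 2495 genes were higher and 4787 lower, the members counted 2 higher and 5 lower, and lower calls moved from 1 to 2 among Gq/11-class Gα genes. Without replicate 2 of both groups, where mesenchymal genes were highest, Rgs16, Rgs10, Rgs18 and Rgs19 were called and Rgs14 was not (adjusted p = 0.0986).

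Of the values of named genes other than Rgs2 under these settings, 750 kept their direction and stayed on the same side of the threshold, 29 lost the call and 1 changed sign, Gnai3, which was not called and went to 0.08 after median-of-ratios scaling. Most named genes were picked for large changes in this same contrast. Rgs1 and other genes tested through either group alone are counted among them. No stability is read from this count. Small lists moved by over 1.5 times in places, and the cause was not tested. The wider RGS-domain list ran from 1 to 8 lower, and from 0 to 2 higher. Without both libraries of replicate 3, 4 receptor kinase or arrestin genes were higher, 3 cAMP-turnover genes lower and 1 Gs or G12/13-class gene lower. The Gi/o-class call was lost with libraries left out, and without a filter 3 of the other RGS genes were lower. The vesicle values of Rgs1, under 1 FPKM, are limited by depth. Rgs3, also under 1 FPKM, rests on at least 129 fragments in each library, if the annotated exon length was used. Its counting error was up to 8.8%.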
